A study of Bos taurus and Bos indicus x Bos taurus with 938 samples.

Results

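Bovine embryos made by somatic cell nuclear transfer (SCNT) and labelled with more than 8 cells were compared with SCNT embryos labelled as 8-cell, using ATAC-seq of single blastomeres. The members were chosen by the cell number in the title of each library, which gave 78 of the 938 libraries, in 7 embryos beyond 8 cells. For 64 of these, in 6 embryos, the deposited table holds a column, and they are 7.81% of its blastomeres. The comparison group was the 21 SCNT 8-cell embryos, 17.7% of the blastomeres. An embryo is named here by an E and its number in the titles. No measured value entered the choice.

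In SCNT an oocyte without its own chromosomes receives a somatic nucleus, and the embryo then has to reset somatic chromatin to an embryonic state. ATAC-seq marks DNA that the transposase Tn5 can reach, so an open region is one that is not tightly packed. Bovine embryos begin to transcribe their own genes in bulk, the major genome activation, around the 8- to 16-cell stage, and new open regions appear at promoters and enhancers around that time. The embryos on both sides of this comparison therefore lie near that transition.

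The SCNT embryos are labelled Bos taurus. The oocytes of all groups came from abattoir ovaries and were matured in culture, the donor cell type is not given in the sources used here, and no age in hours is given. In vitro fertilised (IVF) embryos, labelled Bos indicus x Bos taurus, served only to define reference lists of regions and for side-by-side values. All embryos beyond 8 cells carry the library prefix 15244, while the 8-cell embryos are split into 9 of prefix 15244 and 12 of prefix 15243. Several tests are therefore also given within 15244 alone, and the rest only over both prefixes.

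The 6 embryos were the 12-cell embryo E114 with 12 blastomeres in the table, the 12-cell embryo E67 with 9, the 14-cell embryos E112, E113 and E64 with 10, 13 and 6, and the 16-cell embryo E111 with 14. The 7th, the 14-cell embryo E66, has 5 titles with the letters I, J, K, O and P, of which O and P go past 14 letters, and it has no column. A mean of 86.5% ± 14.2 (SD, n = 6 embryos) of the titled blastomeres had a column, against 93.9% ± 10.3 (SD, n = 21) at 8 cells (two-sided exact permutation test over embryos, p = 0.139). Blastomeres of 1 embryo are not replicates, so every test below is over embryos.

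The table gives regions by running number, with an open or closed call for each blastomere and with no position, gene or sequence, so no region below can be tied to a gene. Columns carry numbers only, and they were tied to titles by matching the runs of column numbers to the runs of title numbers, which is an inference. The values changed at some of the title borders, and also within embryos. Coverage of regions gained at the IVF 8-cell stage, defined below, went from 0.682 in the last blastomere of 5-cell embryo E104 to 2.43 in the first of embryo E114, and from 1.02 in the last of embryo E111 to 2.51 in the first of embryo E112. It went from 1.57 in the last of embryo E113 to 0.631 in the first of 6-cell embryo E40. At other borders the step was smaller, as from 1.91 in the last of embryo E112 to 1.43 in the first of embryo E113. Large steps also occurred inside an embryo, as from 0.329 in blastomere B to 2.33 in blastomere C of 8-cell embryo E115. These steps were looked at after the values had been seen. No 2 columns of the 64 were identical, and the most alike pair, blastomeres J and K of embryo E113, had a Jaccard index (shared open regions over all regions open in either) of 0.228.

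Blastomeres beyond 8 cells had more open regions. The median blastomere had 11807 open regions in embryo E114, 11258 in embryo E67, 8677 in embryo E112, 15303 in embryo E113, 13032 in embryo E64 and 13944 in embryo E111. The medians of the 8-cell embryos ran from 3404 to 12521, with 7061 in the middle embryo. All 6 embryos beyond 8 cells lay above that middle value and 3 lay above every 8-cell embryo, so the groups overlap. On the log10 scale the mean was 4.08 ± 0.0862 (SD, n = 6) against 3.82 ± 0.151 (SD, n = 21), a 1.84-fold difference (exact permutation test, two-sided, p = 0.000358, Benjamini-Hochberg adjusted p = 0.00233 over 13 embryo measures).

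Within prefix 15244 the ratio was 1.81-fold, with p = 0.00699 by the exact test and an adjusted p of 0.0844. The number of open calls follows the recovered fragments of a library as well as its chromatin, and the part of library depth in this difference was not tested. Tn5 amounts were set batch by batch per the labels' protocols.

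**Figure D1:**
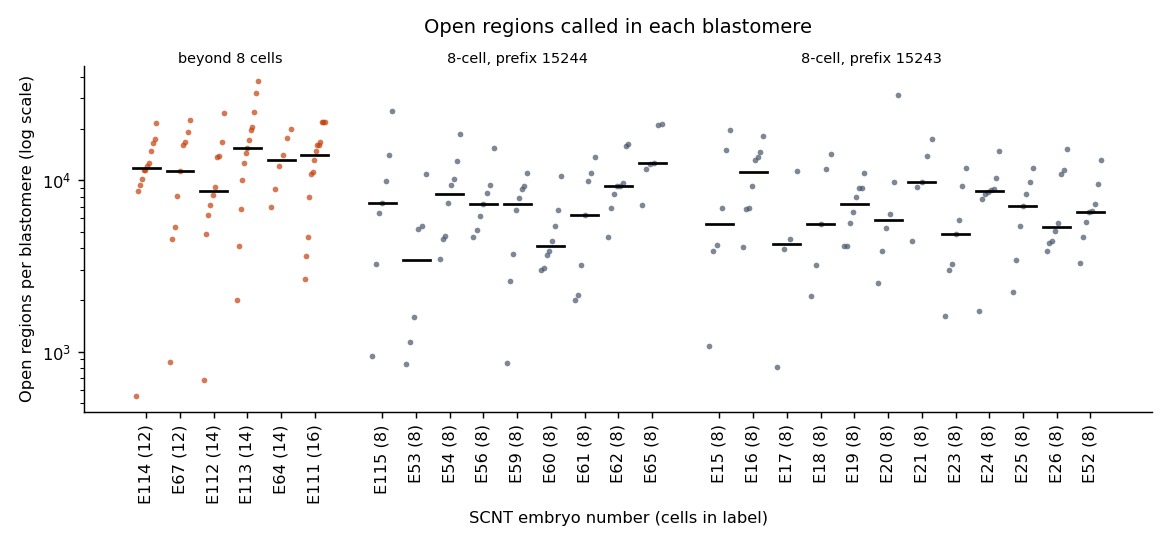
Open regions per blastomere (log axis) in each SCNT embryo, with the labelled cell number in brackets; points are blastomeres and lines are embryo medians. The medians beyond 8 cells lie between 8677 and 15303, and those of 8-cell embryos between 3404 and 12521.

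Sister blastomeres varied widely in their number of open regions. Embryo E113 ran from 1995 to 37658, embryo E112 reached 24571 from below 1000 and embryo E64, the narrowest, from 6951 to 19945. Differences between embryos made up 2.33% of the spread of log10 calls among the 61 blastomeres with at least 1000 calls beyond 8 cells. Among those at 8 cells the share was 19.8%. Even without true differences between embryos, such a share has a level set by the numbers of embryos and blastomeres. Those numbers differ between the groups and that level was not computed, so the shares of the groups cannot be compared. The SD of log10 calls within an embryo was 0.352 ± 0.102 (SD, n = 6) beyond 8 cells and 0.291 ± 0.108 (SD, n = 21) at 8 cells, a difference within the spread between embryos (exact permutation test, p = 0.226). The blastomeres below 1000 calls, 3 beyond 8 cells and 4 at 8 cells, enter only the values on open calls.

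Regions called higher in IVF 8-cell than in IVF 2-cell embryos (the gained regions) were more open in SCNT embryos beyond 8 cells than in SCNT 8-cell embryos. The reference list holds the 7378 regions, 7.95% of 92826 tested, that were higher in 14 IVF 8-cell than in 66 IVF 2-cell embryos by the region test used below, with an adjusted p under 0.05. These IVF 8-cell embryos all carry prefix 15287, while all but 3 of the IVF 2-cell embryos carry prefix 15286. In this list and in the opposite list below, stage and prefix can therefore largely not be told apart. The groups compared for the list hold no SCNT embryo, although the filter on regions and the factor of each region were taken over the whole table. Coverage of the list is the number of its regions called open divided by the number expected. The expected number comes from the blastomere's calls in the 29 blocks described below. It also takes in how often each region is open over all blastomeres of the table, so 1 is the level of an average blastomere of that depth.

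Median coverage of these gained regions was 2.19 in embryo E114, 1.51 in embryo E67, 2.27 in embryo E112, 1.48 in embryo E113, 2.09 in embryo E64 and 0.977 in embryo E111. At 8 cells, 19 of the 21 embryos lay between 0.266 and 0.849, and embryos E65 and E115 lay at 1.67 and 1.95. The 16-cell embryo E111 was thus the lowest of the 6, although still above the middle 8-cell embryo at 0.663. The mean was 1.75 ± 0.511 (SD, n = 6) against 0.745 ± 0.386 (SD, n = 21), a ratio of 2.35 (exact permutation test, two-sided, p = 0.00023, adjusted p = 0.00233 over 13 measures). Within prefix 15244 it was 1.75 against 0.914 ± 0.523 (SD, n = 9), with p = 0.013 by the exact test and an adjusted p of 0.0844.

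The comparison was repeated on blastomeres of 5000 to 15000 calls, since depth differed between the groups. The difference of 1.01 in coverage was then 1.04 (exact permutation test, p = 0.00026, adjusted p = 0.00233). Leaving out any 1 of the 6 embryos gave differences from 0.904 to 1.16.

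Blastomeres of an embryo kept together to differing degrees. All 9 blastomeres of embryo E112 lay between 1.91 and 2.51 and all 8 of embryo E67 between 1.43 and 1.69. The ranges were wider in embryo E114, from 1.29 to 2.45, and in the 6 blastomeres of embryo E64, from 1.11 to 2.34. In embryo E111, 3 of 14 blastomeres were above 1, with a highest value of 1.20. Embryo E113 had 12 of 13 above 1, and its remaining blastomere, I, with 1995 calls, was at 0.525. Differences between embryos made up 75.1% of the spread of this measure among the 61 blastomeres, against 2.33% for the number of calls. The 8-cell embryo E115 was split, with 4 blastomeres between 1.87 and 2.33 and blastomeres B and H at 0.329 and 0.339.

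**Figure D2:**
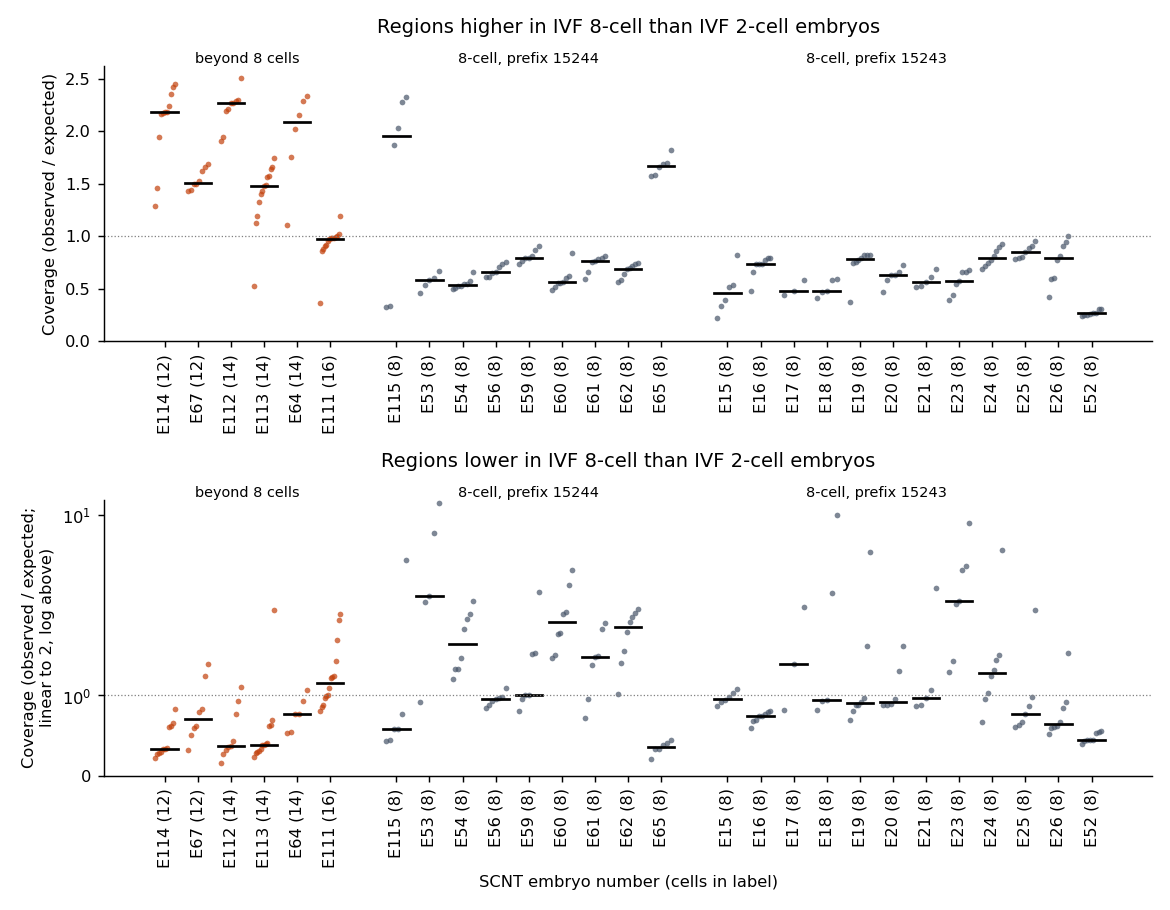
Coverage of regions higher (top) and lower (bottom) in IVF 8-cell than IVF 2-cell embryos in each blastomere (points) and embryo (median, line); the lower axis is linear to 2 and logarithmic above. In the upper panel the medians beyond 8 cells lie between 0.977 and 2.27, and 19 of 21 8-cell embryos lie at or below 0.849.

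None of the 76 SCNT embryos below 8 cells with a blastomere of at least 1000 calls had a median above 1 for the gained regions. Of the 8-cell embryos 2 of 21 did, and of those beyond 8 cells 5 of 6. The 12-cell embryos averaged 1.85 and the 14-cell embryos 1.95 ± 0.414 (SD, n = 3), so the labelled cell number did not order the 6 embryos. For comparison, IVF embryos averaged 1.22 ± 0.53 (SD, n = 6) at 6 cells and 2.05 at 7 cells (2 embryos), and IVF 8-cell embryos, which defined the list, ran from 0.464 to 2.31. The IVF 13-cell embryo E613 was at 1.67 and the 16-cell embryo E617 at 0.511, the latter from 2 blastomeres.

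The level also followed the embryo numbers in the labels, a pattern seen after the values were known. The 6 embryos beyond 8 cells are E64, E67 and E111 to E114, and both 8-cell embryos above 1 are E65 and E115. These are the only 8-cell embryos of prefix 15244 numbered from E64 to E67 or from E111 to E115. The other 7 8-cell embryos of that prefix lay between 0.536 and 0.794. What the embryo number stands for is not given in the sources used here, so the number of cells and the numbering cannot be told apart. The same limit holds for open calls and for the blocks below. Embryo E65 had the highest median of open regions among the 8-cell embryos, while embryo E115, at 7312, lay near the middle one. Against embryos E65 and E115 alone, the 6 embryos beyond 8 cells had a mean of 1.75 and these 2 a mean of 1.81.

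The opposite list holds 2103 regions that were lower in IVF 8-cell than in IVF 2-cell embryos. Their median coverage beyond 8 cells was 0.334 in embryo E114, 0.71 in embryo E67, 0.37 in embryo E112, 0.379 in embryo E113, 0.77 in embryo E64 and 1.16 in embryo E111. The 8-cell embryos ran from 0.358 to 2.71, and their range holds all but embryo E114. The mean was 0.62 ± 0.323 (SD, n = 6) against 1.19 ± 0.638 (SD, n = 21), with p = 0.0415 by the exact permutation test and an adjusted p of 0.132 over 13 measures, so this difference did not pass. Embryo E111, lowest for the gained regions, was highest here.

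The gained regions are a part of a wider redistribution across regions that differ in how widely they are open in IVF embryos. Regions of the 29 blocks described below were divided by the share of all IVF blastomeres in which they were open, a division added after results were seen. Expected calls are matched to the calls in the 29 blocks, so a lower coverage in some classes has to be met by a higher one in others. The results of the classes are therefore not independent of each other. Regions open in 0 to 5% of IVF blastomeres had coverage of 0.779 ± 0.106 (SD, n = 6) beyond 8 cells and 1.13 ± 0.185 (SD, n = 21) at 8 cells (exact permutation test, p = 5.4e-05, adjusted p = 0.0002 over 5 classes). No embryo beyond 8 cells reached the middle 8-cell embryo, at 1.12, and 3 of 6 lay below every 8-cell embryo.

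Regions open in 10 to 20% of IVF blastomeres went the other way, at 1.28 ± 0.0988 against 0.867 ± 0.196 (exact permutation test, n = 6 and 21, adjusted p = 0.0002). The 6 embryos lay between 1.18 and 1.38, all above the middle 8-cell embryo at 0.88, though the highest 8-cell embryo reached 1.40. Regions open in 20 to 30% were at 1.45 ± 0.219 against 0.924 ± 0.26 (exact permutation test, n = 6 and 21, adjusted p = 0.00023). The 8-cell embryos E65 and E115 lay with those beyond 8 cells in these classes too, at 0.843 and 0.729 for 0 to 5% and at 1.25 and 1.40 for 10 to 20%. The differences in the classes of 0 to 5%, 10 to 20% and 20 to 30% also passed within prefix 15244, each with an adjusted p of 0.015 (exact permutation test, 6 against 9 embryos).

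At the edges of this range the picture was weaker. The class of 5 to 10% was at 0.948 ± 0.0733 against 0.865 ± 0.0525 (exact permutation test, n = 6 and 21, adjusted p = 0.00601), and it did not pass within prefix 15244, with p = 0.114. The most widely open regions, those open in over 30% of IVF blastomeres, were at 1.20 ± 0.158 and 1.16 ± 0.357 (exact permutation test, n = 6 and 21, adjusted p = 0.782).

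**Figure D3:**
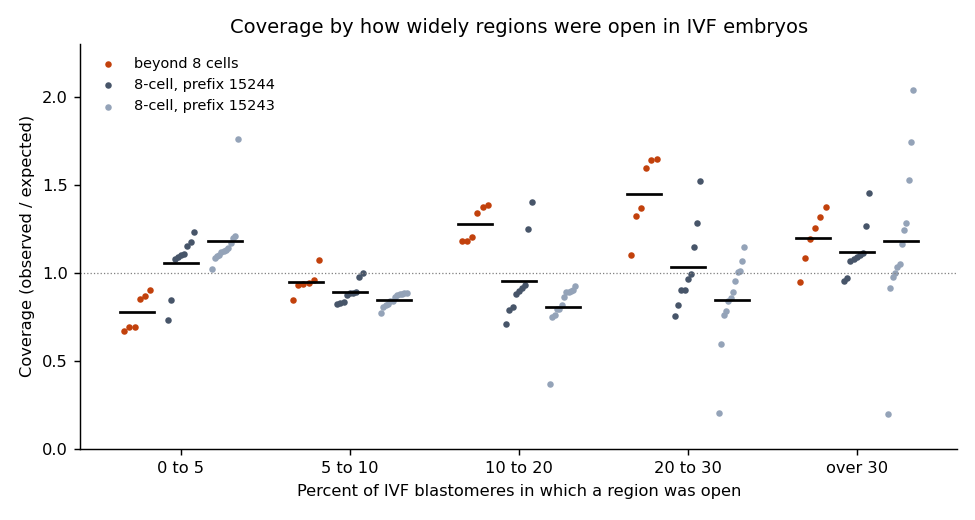
Coverage of regions grouped by the share of IVF blastomeres in which they are open; points are SCNT embryos, with 8-cell embryos split by prefix, and lines are means. Embryos beyond 8 cells are low in the class of 0 to 5% (mean 0.779) and high in those of 10 to 20% and 20 to 30% (means 1.28 and 1.45).

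The openness classes and the gained list share regions, so they were also crossed. Among regions open in 10 to 20% of IVF blastomeres, the 3148 in the gained list were at 1.85 ± 0.67 beyond 8 cells and 0.645 ± 0.453 at 8 cells, a ratio of 2.88. The 13504 outside the list were at 1.15 ± 0.0753 and 0.915 ± 0.16, a ratio of 1.26 (exact permutation tests, n = 6 and 21, adjusted p = 0.00063 and 0.00177 over 9 sets). Among regions open in 5 to 10%, the 2044 in the list had a ratio of 3.05 and the 47049 outside it 1.02 (exact permutation test, adjusted p = 0.00107 and 0.584). Among the most widely open regions, those in the list had a ratio of 1.76 and those outside it 0.82 (adjusted p = 0.000385 and 0.306). The larger ratio was inside the list in each of these classes, and the difference between the ratios was not tested.

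Open regions that neighbour each other in the numbering tend to be open in the same blastomeres. From this the table divides into 29 blocks, a stretch joined from several pieces (called mixed here) and 2 small blocks at the end, P and Q. How far the regions of the mixed stretch go together was not measured. Their positions in the genome are not known from the table, and no chromosome is assigned to them. Block coverage is the number of open calls in a block over the number expected from the calls in the 29 blocks.

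Of 31 blocks, 4 were higher beyond 8 cells (12.9% of those tested) and 4 lower (12.9%), at an adjusted p under 0.05. Blocks 10, 11, 16 and 18 rose and blocks 1, 4, 26 and 29 fell. Since expected calls are matched to the calls in the 29 blocks, a rise in some of these has to be met by a fall in others. Block 11 lay at 1.17, 1.19, 1.09, 1.11, 1.25 and 1.30 in embryos E114, E67, E112, E113, E64 and E111. The 8-cell embryos ran from 0.604 to 1.12, the latter in embryo E115, so 4 of 6 embryos beyond 8 cells lay above all of them. The means were 1.19 ± 0.0815 (SD, n = 6) and 0.879 ± 0.152 (SD, n = 21), a log2 ratio of 0.43 (exact permutation test, two-sided, adjusted p = 0.00168 over 31 blocks).

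Block 1 lay between 0.708 and 0.973 beyond 8 cells and between 0.848 and 1.26 at 8 cells, a log2 ratio of -0.32 (exact permutation test, adjusted p = 0.00791), with 4 of 6 embryos below every 8-cell embryo. The lowest 8-cell embryo here was E65. Blocks 10 and 18 had log2 ratios of 0.36 and 0.37, and blocks 4 and 29 of -0.31 and -0.24, each with an adjusted p of 0.0298 by the exact permutation test. Blocks 16 and 26 had log2 ratios of 0.20 and -0.27 (adjusted p = 0.0453, exact permutation test). Within prefix 15244, 4 blocks passed, namely 1, 10, 11 and 18. With only blastomeres of 5000 to 15000 calls 2 of 31 passed, 10 and 11. Without embryo E67 or without embryo E64 the number was 2, without embryo E113 it was 3 and without embryo E112 it was 5.

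Blocks 10, 11 and 18 were also those with the highest share of open calls per region in IVF blastomeres among the 29, at 5.66%, 5.08% and 4.99%, while blocks 1 and 4 were at 3.95% and 3.92%. Across the 29 blocks the log2 ratio and this share had a Pearson r of 0.62 and a Spearman rho of 0.53. This is a description over blocks of the same libraries, and it draws on the same regions as the openness classes above.

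**Figure D4:**
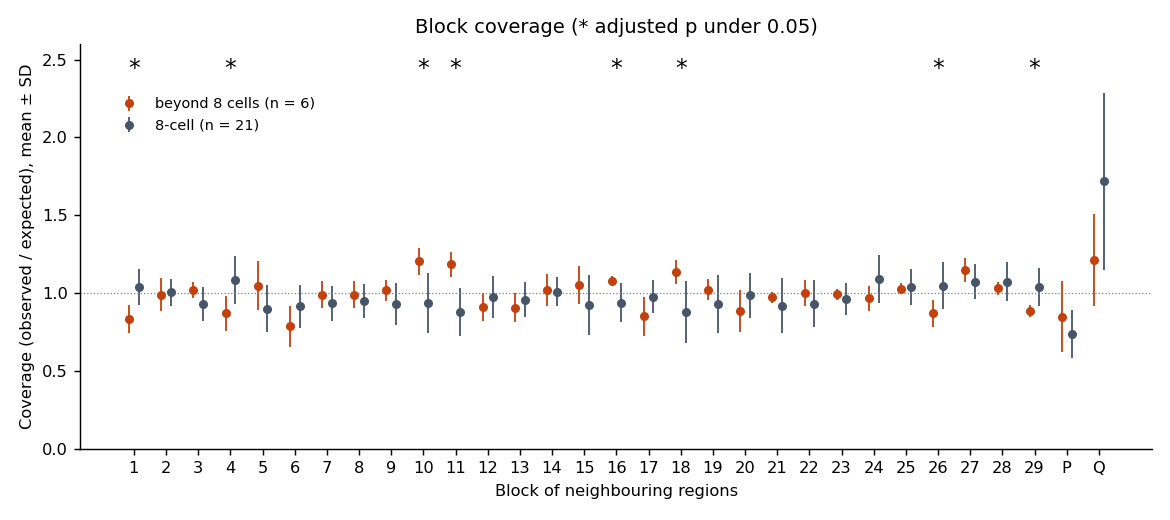
Coverage of 31 blocks, mean ± SD over 6 SCNT embryos beyond 8 cells and 21 SCNT 8-cell embryos; an asterisk marks an adjusted p under 0.05. Blocks 10, 11, 16 and 18 are higher and blocks 1, 4, 26 and 29 lower beyond 8 cells.

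No blastomere beyond 8 cells lacked a block, where lacking means less than 0.1 of the expected calls in any of the 29 blocks. The count was 0 of 61 blastomeres, which allows a share of up to 4.92%, and it was also 0 in SCNT 8-cell embryos, which allows up to 2.13%. The same measure found 2 of 12 blastomeres in IVF embryos beyond 8 cells and 21 (20.6%) in IVF 8-cell embryos. Both limits take sister blastomeres as independent. They are too narrow where lacking a block runs in embryos, as in IVF 8-cell embryos E526 and E612, at 57.1% and 75% of blastomeres. Unevenness, the SD of log2 coverage over the 29 blocks at 1000 calls, was 0.426 ± 0.0554 (SD, n = 6) beyond 8 cells and 0.48 ± 0.0767 (SD, n = 21) at 8 cells (exact permutation test, p = 0.127).

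In some blocks 1 embryo, beyond 8 cells or at 8 cells, had the lowest median of the 27 embryos, with each of its blastomeres below the median of the other embryos. In embryo E113 block 6 had a median coverage of 0.551, where the next lowest of the 27 embryos was at 0.67 and the median of the others 0.884. All 13 of its blastomeres, from 0.407 to 0.863, lay below that median. In embryo E112 block 17 had a median of 0.663 against a next lowest embryo at 0.791, and all 9 blastomeres lay below the median of the other embryos, 0.97. In embryo E67 block 4 had a median of 0.686, with all 8 blastomeres between 0.632 and 0.894 and the median of the others at 1.02. Every block has a lowest and a highest embryo, and of the 29 lowest values 10 fell to an embryo beyond 8 cells, and of the 29 highest 5. Embryos beyond 8 cells are 6 of the 27. The 8-cell embryo E52 showed the same in block 10, with a median of 0.542, a next lowest embryo at 0.721 and all 8 blastomeres below the median of the others. So did the 8-cell embryos E21 in blocks 3, 5 and 18 and E53 in block 28, each with all 5 blastomeres below. The pattern was thus not particular to embryos beyond 8 cells. These embryos and blocks were picked by rank, so they are a description with no test.

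Block P differed most between embryos E111 and E113. All 14 blastomeres of the 16-cell embryo E111 lay between 0.322 and 0.689, and all 13 of the 14-cell embryo E113 between 0.959 and 1.45, so no blastomere of one overlapped the other. The embryo medians were 0.492 and 1.16, the lowest and the highest of the 27 embryos, with 0.821, 0.873, 1.01 and 0.741 in embryos E114, E67, E112 and E64. The 8-cell embryos ran from 0.505 to 1.06. Means were 0.849 ± 0.229 (SD, n = 6) and 0.737 ± 0.155 (SD, n = 21), a difference within the spread between embryos (exact permutation test, p = 0.173, adjusted p = 0.282). Differences between embryos made up 64.6% of the spread of block P among blastomeres beyond 8 cells.

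Embryo E111 was also the lowest of the 27 in block Q, at 0.658 against a next lowest embryo at 0.84, with all 14 blastomeres below the median of the other embryos, 1.53. Block Q averaged 1.21 ± 0.295 (SD, n = 6) beyond 8 cells and 1.72 ± 0.569 (SD, n = 21) at 8 cells (exact permutation test, adjusted p = 0.129). It holds 530 regions, so its values in single blastomeres rest on few calls. In blastomere J of embryo E111, with 3593 calls, block 6 was at 4.08 and block 17 at 5.10, and 58.6% of its calls thinned to 1000 fell in the mixed stretch, against a median of 17.1% in the embryo.

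**Figure D5:**
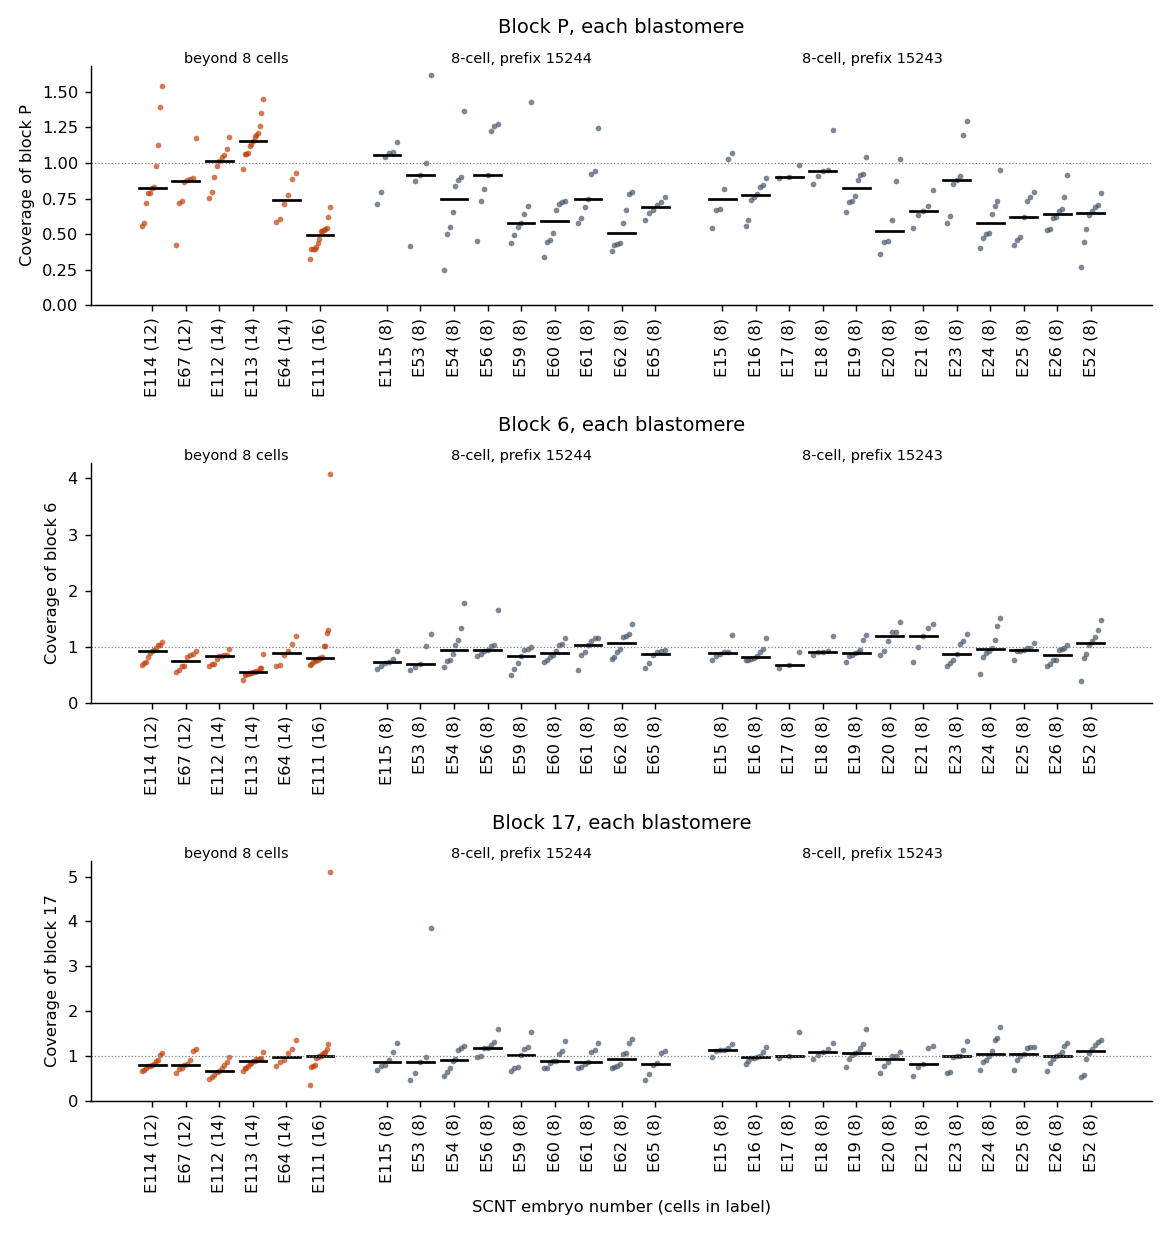
Coverage of blocks P, 6 and 17 in each blastomere (points) with embryo medians (lines). In block P embryo E111 lies between 0.322 and 0.689 and embryo E113 between 0.959 and 1.45; in block 6 the blastomeres of embryo E113 lie between 0.407 and 0.863.

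The share of calls in the mixed stretch, at 1000 calls per blastomere, was 16.8% ± 1.82 (SD, n = 6) beyond 8 cells and 25.7% ± 11.1 (SD, n = 21) at 8 cells (exact permutation test, p = 0.0539, adjusted p = 0.132). Its 8-cell mean was 20.2% within prefix 15244, where the exact p was 0.196. The share in regions open in at least 30% of IVF blastomeres was 15.9% ± 3.05 against 24.5% ± 11.3 (exact permutation test, n = 6 and 21, p = 0.0709, adjusted p = 0.132). For both shares the 6 embryos lay inside the range of the 8-cell embryos and below their middle embryo.

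The similarity of blastomeres to each other, thinned to 1000 calls, passed no adjusted test. The mean Jaccard index among sister blastomeres was 0.0101 ± 0.00192 (SD, n = 6) beyond 8 cells and 0.0179 ± 0.0102 (SD, n = 21) at 8 cells (exact permutation test, p = 0.0661, adjusted p = 0.132). Between blastomeres of different embryos of a group it was 0.00885 ± 0.000785 and 0.0134 ± 0.00421 (exact permutation test, p = 0.0161, adjusted p = 0.0697). With only blastomeres of 5000 to 15000 calls the latter difference turned, to 0.00044 (exact permutation test, p = 0.607). Without thinning it was 0.025 and passed (exact permutation test, adjusted p = 0.0194), where the number of calls differs between the groups. Sisters exceeded non-sisters by 0.00299 in embryo E111 and 0.00245 in embryo E112, whereas in embryos E67 and E113 the differences were 0.000087 and -0.000419. The Jaccard index to IVF 8-cell blastomeres was 0.00903 ± 0.00106 beyond 8 cells and 0.0109 ± 0.00348 at 8 cells (exact permutation test, p = 0.214). To IVF blastomeres beyond 8 cells it was 0.00738 and 0.00761 (exact permutation test, p = 0.78).

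Single regions were tested over embryos with a quasi-Poisson score test bounded by an exact binomial test. Of 105187 regions, 68 were higher beyond 8 cells (0.0646%) and 6 lower (0.0057%) at a Benjamini-Hochberg adjusted p under 0.05. The median log2 ratio over all tested regions was 0.09. This count changed with the prefixes and embryos used. Within prefix 15244 this score test passed 0 of 103006 regions after adjustment, while 3943 had a p below 0.05 without it. All 74 kept their direction there, but they were chosen on a set that holds these same embryos, so this is no separate support. Without embryo E64, E112 or E114 it called 0, without embryo E67 it called 1, without embryo E113 it called 25, and without embryo E111 it called 916, which included all 74.

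The regions called higher were spread over the table. They lay in 24 of the 29 blocks, in block P (2 regions) and in the mixed stretch (6), with 6 in block 10 and 5 each in blocks 9 and 11. Regions open in 20 to 30% of IVF blastomeres held 33 of them, out of 4611 tested, and those open in 10 to 20% held 24 out of 19240. The classes of 0 to 5%, 5 to 10% and over 30% held 0 of 28065, 7 of 49620 and 4 of 3651. Of the 7377 gained regions tested here, 45 were called higher and 0 lower, and their median log2 ratio was 1.13. Of the 2088 tested regions of the opposite list, none was called and the median was -0.59. Of the 6 called lower, 5 lay in the mixed stretch and 1 in block 11.

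Region V300609 in block P had the smallest p of those higher. It was open in 7 of 12 blastomeres of embryo E114, 5 of 9 of embryo E67, 7 of 10 of embryo E112, 4 of 13 of embryo E113, 4 of 6 of embryo E64 and 1 of 14 of embryo E111. At 8 cells it was open in 3 blastomeres (2.07%), from 3 embryos, and in 39.8% of IVF 8-cell blastomeres. The log2 ratio of observed over expected calls was 3.70 ± 0.90 (SE, score test, adjusted p = 0.0436). Embryo E111 was low for this region as it was for block P as a whole.

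Region V70755 in block 7, a member of the gained list, was the most widely open of the 5. It was open in 37 of 64 blastomeres beyond 8 cells, in all 6 embryos, and in 11 (7.59%) at 8 cells, in 9 embryos, with a log2 ratio of 2.26 ± 0.47 (SE, score test, adjusted p = 0.0436). In IVF 8-cell blastomeres it was open in 48.5%. Regions V157256 in block 17 and V80961 in block 8, also of the gained list, were open in 24 and 21 of 64 blastomeres beyond 8 cells and in 2 and 1 (1.38% and 0.69%) at 8 cells. V157256 was closed in all 14 blastomeres of embryo E111. Region V98911 in block 10 was open in 24 of 64 beyond 8 cells and in 3 (2.07%) at 8 cells. Within prefix 15244 the log2 ratios of these 5 regions ran from 1.76 (V70755) to 4.14 (V300609), each with an adjusted p of 1.

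Region V107404 in block 11 had the smallest p of those lower. It was open in 74.5% of 8-cell blastomeres, in all 21 embryos, and in 21 of 64 (32.8%) beyond 8 cells, with a log2 ratio of -1.72 ± 0.36 (SE, score test, adjusted p = 0.0489). By embryo it was open in 2 of 12 blastomeres of embryo E114, 8 of 9 of embryo E67, 0 of 10 of embryo E112, 6 of 13 of embryo E113, 4 of 6 of embryo E64 and 1 of 14 of embryo E111. The fall was thus uneven, with embryo E67 as open as the 8-cell embryos. In IVF 8-cell blastomeres it was open in 22.3%.

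The other 4 regions named as lower lay in the mixed stretch. V283185, V283162 and V283168 are close in the numbering. V283168 was open in 84.8% of blastomeres at 8 cells and in 29 of 64 (45.3%) beyond 8 cells, of which 10 of 12 were in embryo E114, 6 of 6 in embryo E64 and 1 of 13 in embryo E113. V283185 was open in 10 of 12 blastomeres of embryo E114, 6 of 6 of embryo E64 and 0 of 9 of embryo E67. V278016 was open in 66.9% at 8 cells and in 20 of 64 (31.2%) beyond 8 cells. For V283168 and V283185, embryos E114 and E64 were as open as the 8-cell embryos and the low values came from the other embryos.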

How the data were processed

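Single blastomeres of known embryos were tagged with Tn5 in separate tubes, per the labels' protocols. The submitters' processing notes name bedtools, Bowtie2 2.2.6 and FastQC 0.10.1. For the genome build and for the rule behind an open call, nothing is given in the sources used here. The values the authors deposited are 0 or 1 for 302830 regions in 819 blastomeres, 145 of them of SCNT 8-cell embryos, so no depth in reads is known, and open calls per blastomere (552 to 37658 in the 64 members) stand in for it. The upper limits given beside a count of 0 include counting error alone and take sister blastomeres as independent.

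Column numbers 1 to 259 and 500 to 729 were taken as the title numbers of prefixes 15243 and 15244, an inference from equal spans. The expected chance of a call saturates with the product of a factor per blastomere and a factor per region (1 minus its negative exponential), fitted over the whole table in 12 iterations. For coverage, the blastomere factor was fitted again to the calls in the 29 blocks. Coverage is observed over expected calls, as the median over an embryo's blastomeres with at least 1000 calls. Blocks were placed from correlations between bins of 100 regions in 419 blastomeres with at least 8000 calls. Shares, unevenness and Jaccard indices used blastomeres thinned to 1000 calls.

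The embryo was the replicate. No source used here says that embryos came from separate batches of oocytes, so p-values measure only the spread between these embryos. Measures were compared by two-sided exact permutation tests over all 296010 splits of 6 and 21 embryos (5005 within prefix 15244), Benjamini-Hochberg adjusted over 13 measures, 5 classes or 31 blocks. Regions open in at least 10% of the 225 embryos with at least 1000 calls were tested by a quasi-Poisson score test with dispersion moderated by limma 3.58.1 in R 4.3.3, the p being the larger of this and an exact binomial p. A filter on the 27 compared embryos was tried first and called 0 regions, after which the filter over all embryos was used. The region test ran on the real data before it was tested on simulated data. Python 3.11.15, numpy 2.4.6, scipy 1.17.1 and matplotlib 3.10.9 were used.

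The members and lists were chosen with earlier results of these data known. Regions named are the 5 with the smallest p in each direction among those past the threshold, all embryos beyond 8 cells are named by number, and blocks named are those past the threshold. Other blocks and embryos were named after their values were seen. Embryo E66 has no column and was not analysed here.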

Additional observations from a re-analysis of the deposited data

Results flagged for a closer look

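The change in open calls from 8 cells to beyond 8 cells had opposite signs in the SCNT and IVF means, and the test of the difference between them had a p below the threshold only before adjustment. SCNT embryos rose by 0.265 on the log10 scale, from 3.82 to 4.08, while the IVF mean was 4.13 ± 0.274 (SD, n = 14 embryos) at 8 cells and 3.69 over 3 embryos beyond 8 cells. The difference of the 2 changes was 0.699 (permutation of the labels within each type with 100000 draws, two-sided, p = 0.0181, adjusted p = 0.0725 over 4 measures), so it did not pass after adjustment. The IVF embryos beyond 8 cells are E613 with 11 blastomeres and a median of 4.32, E617 with 3 and 4.05, and E618 with 1 blastomere of 520 calls. The fall in the IVF mean, and so the opposite sign, rests on embryo E618, at 2.72. Without it the IVF mean would not fall. Of the titled IVF blastomeres beyond 8 cells 15 of 40 have a column, against 64 of 78 in SCNT, and the part of this loss in the difference was not tested. None of 48 measures, classes and blocks had an embryo standing apart from the other 5 beyond 8 cells by Dixon's test, where chance gives about 1 in 20.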

How the results depend on the processing

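Leaving out any 1 of the 6 embryos kept the direction and the call of open calls, of coverage of the gained regions and of the 5 openness classes, but moved the number of blocks called from 8 to between 2 and 7 and the share of tested regions called from 0.0704% to between 0% and 0.872%. Within prefix 15244 the difference in open calls was 0.257 (log10), that in coverage of the gained regions 0.838 and that of the 5 to 10% class 0.0592, none past the threshold, with 4 blocks called. The Jaccard index to IVF embryos beyond 8 cells turned to a difference of 0.000223 there, and to 3.22e-05 with only embryos holding at least 50% of their cells, where 2 blocks were called. Without thinning, differences in Jaccard index turned, to 0.025 for non-sisters, 0.017 for sisters, 0.0226 to IVF 8-cell and 0.0372 to IVF blastomeres beyond 8 cells, and all but that for sisters passed (adjusted p = 0.0194, 0.0299 and 0.00149, exact permutation test). With only 14- and 16-cell embryos 1 block was called.

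With blastomeres of 5000 to 15000 calls, an alternative added after seeing the data, the non-sister and IVF 8-cell differences turned to 0.00044 and 8.46e-06 and 2 blocks were called. With prefix 15244 as well, the gained regions differed by 0.86 and the 5 to 10% class by 0.0475, both short of the threshold, the Jaccard differences were 0.00118, 0.000587 and 0.000173, and 3 blocks were called. Bins of 5000 regions gave 12 of 54 past the threshold.

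The region test, in percent of the regions tested, called 2.77% (416 regions higher) with a filter at 25% of embryos and 0.394% by the score test alone, against 0.0704%. It called 0% within prefix 15244 (3943 regions at an unadjusted p under 0.05), with a filter at 5% (11439), with depth from commonly open regions (9579), after thinning embryos to equal totals (2287), with the filter on the compared embryos (11702) and with blastomeres of 5000 to 15000 calls (4364), where the score test alone called 0, 0.609%, 0.23%, 2.63%, 0.0693% and 1.90%. It called 0 without embryo E114, E112 or E64 (8309, 7839 and 8333 at an unadjusted p under 0.05). The median log2 ratio of all regions was 0.09, and 0.84 after thinning. For each of these changes the cause was not tested. Shifting the column numbers by 1 or 2 kept the direction of the sister Jaccard difference. No paired analysis was possible because the groups share no embryo.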
